A study of Mus musculus with 15 samples.

Results

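The matrilins, COMP and the CILPs are 7 genes for noncollagenous proteins of the cartilage matrix: *Matn1*, *Matn2*, *Matn3*, *Matn4*, *Comp*, *Cilp* and *Cilp2*. They were chosen by name with earlier results of these data known, and all 7 were found among the 24134 genes of both count tables. RNA was sequenced from primary articular chondrocytes of ICR mouse pups a few days old, taken from the femoral condyles and tibial plateaus and grown in culture. In the siRNA table, 3 libraries came from cells transfected with a control siRNA (siCtrl) and 3 from cells transfected with siRNAs against both tankyrase genes, *Tnks* and *Tnks2* (siTnks/2). In the drug table, 3 libraries each came from cells kept for 108 h in the solvent DMSO, in 10 µM XAV939 or in 10 µM IWR-1, a pair of small-molecule tankyrase inhibitors. XAV939 is a thiopyranopyrimidine and IWR-1 a quinolinyl benzamide that carries a norbornene imide. No genetic modification and no time after transfection is given, and the replicates are described as biological without saying how many pups made up each culture.

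Matrilins are secreted multi-subunit proteins that connect collagen fibrils to proteoglycans through von Willebrand factor A domains. MATN1 and MATN3 are largely restricted to cartilage, whereas MATN2 and MATN4 are made in many connective tissues. COMP, a cartilage member of the thrombospondin family, joins its arms to collagen II, collagen IX and matrilins and assists fibril assembly. Mutations in MATN3 or COMP cause multiple epiphyseal dysplasia, and COMP mutations also cause pseudoachondroplasia. CILP is a glycoprotein of the middle zone of adult articular cartilage that is cleaved after synthesis and can bind TGF-β and antagonize IGF signalling, and CILP2 is its close relative.

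The siRNAs are shown because the knockdown comparison rests on them. The sense strands that the study names for its knockdowns were as follows, and each matched its target over its whole length.
*Tnks* siRNA: gucugucguugaguaccuu
*Tnks2* siRNA: gugucuacuuguaucacau
The *Tnks* site lay in the coding sequence, in exon 14 of 27 (GRCm38 chr8:34855966-34855984, minus strand), and was in 2 of 6 annotated transcripts. The *Tnks2* site lay in the 3′ UTR, in exon 27 of 27 (GRCm38 chr19:36892822-36892840, plus strand), and was in 1 of 9. The antisense strand listed for *Tnks* differed from the complement of its sense strand by 1 substitution, U8A, counted from the 5′ end of the antisense strand.

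RefSeq promoter windows (GRCm38.p6) were matched for 5 of the 7 genes, and the 250 bases before the start site are shown for *Matn1* and *Matn3*, the genes with the largest rise under IWR-1, and for *Cilp2*, which rose under knockdown and was not called under either drug. Capitals mark GGGCGG, the letters of a GC box, and AACAAT, letters of a SOX-type site, on either strand.
*Matn1* (chr4:130944135-130944384, plus strand): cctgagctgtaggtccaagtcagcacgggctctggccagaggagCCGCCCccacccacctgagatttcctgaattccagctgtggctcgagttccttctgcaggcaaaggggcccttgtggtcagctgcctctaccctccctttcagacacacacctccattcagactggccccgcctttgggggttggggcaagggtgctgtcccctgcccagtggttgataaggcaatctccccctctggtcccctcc
*Matn3* (chr12:8947679-8947928, plus strand): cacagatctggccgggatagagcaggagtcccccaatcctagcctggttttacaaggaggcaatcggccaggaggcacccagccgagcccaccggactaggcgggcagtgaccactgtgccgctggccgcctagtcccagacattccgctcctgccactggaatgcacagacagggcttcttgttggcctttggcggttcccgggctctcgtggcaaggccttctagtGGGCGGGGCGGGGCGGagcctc
*Cilp2* (chr8:69887393-69887642, minus strand): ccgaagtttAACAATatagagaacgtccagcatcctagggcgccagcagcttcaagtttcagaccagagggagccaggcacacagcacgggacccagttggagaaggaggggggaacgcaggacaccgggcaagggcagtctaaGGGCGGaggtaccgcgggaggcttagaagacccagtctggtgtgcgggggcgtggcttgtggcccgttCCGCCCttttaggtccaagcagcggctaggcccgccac
The SOX core letters ACAAAG and ACAATG and the TATA letters TATAAA were searched on both strands, and none was in any of the 6 windows of the 5 genes. Over the 32851 windows of the same length, 16.5% held ACAAAG, 10.7% held ACAATG and 12.4% held TATAAA. The other letters, GGGCGG and AACAAT, were added to the search after the windows had been read. The window of *Matn3* held 3 overlapping copies of GGGCGG, which begin 22, 17 and 12 bases before the start, *Cilp2* held 2, *Matn1* held 1, *Matn4* held 1 in 1 of its windows, and *Cilp* held none. Of all windows, 32.7% held GGGCGG. The *Cilp2* window also held AACAAT, as did 9.42% of all windows. Only exact letters were searched. The *Cilp* window, which is not shown, held the TATA-type letters TATATAAG near its end, and these were not searched in all windows. These are matches of letters, and no binding was measured.

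Between 26857070 and 36615194 reads per library were counted on genes. The targeted genes measured 69.0, 58.4 and 70.1 CPM, read counts scaled to library size, for *Tnks* with siCtrl and 19.5, 12.7 and 24.0 CPM with siTnks/2, and both targets fell (*Tnks* log2 fold change −1.81, adjusted p = 0.00569; *Tnks2* −1.10, adjusted p = 0.00384). Summed over 10 chondrocyte marker genes, expression ranged from 77794 to 106110 CPM with siCtrl and from 111236 to 186388 CPM with siTnks/2. In the drug table the sum ran from 25018 to 34070 CPM for DMSO, from 33944 to 50970 CPM for XAV939 and from 83043 to 106488 CPM for IWR-1. The summed fibroblast and tendon markers ran from 12115 to 15160 CPM for DMSO, from 6316 to 8241 CPM for XAV939 and from 5808 to 8720 CPM for IWR-1. In the siRNA table they ran from 5325 to 9085 CPM with siCtrl and from 2830 to 7868 CPM with siTnks/2. Summed markers of leukocytes, endothelium and muscle reached at most 15.5, 8.56 and 7.54 CPM in any library. The chondrocyte sum was higher in every siTnks/2 library than in any siCtrl library and in every IWR-1 library than in any DMSO library, while its XAV939 and DMSO ranges overlapped. Most of this sum was *Col2a1*, with means of 68068 CPM with siCtrl and 23784 CPM with DMSO, so it mainly follows that gene. On its own *Col2a1* overlapped under knockdown, from 80131 CPM in the lowest siTnks/2 library to 81498 CPM in the highest siCtrl library. In bulk RNA a change in the number of cells of a type cannot be told apart from a change in RNA per cell.

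Levels between genes were compared per kb of exon. In siCtrl cells *Comp* was the most abundant at 1120.1 ± 102 CPM per kb (SD, n = 3), followed by *Matn1* at 930.2 ± 109 CPM per kb. *Matn3* measured 109 ± 17.0, *Matn4* 19.8 ± 6.47, *Matn2* 6.01 ± 1.29 and *Cilp2* 0.982 ± 0.00835 CPM per kb. Only *Comp* and *Matn1* overlapped as neighbours in this order, and *Cilp* was at the floor with 3 counts over the 3 libraries. After 108 h in DMSO, the order was the same at its top but its values were far apart. *Comp* measured 591 ± 83.5 and *Matn1* 122 ± 59.3 CPM per kb. *Matn3*, *Matn2* and *Matn4* measured 9.28 ± 1.97, 9.11 ± 1.39 and 8.56 ± 0.748 CPM per kb, with overlapping libraries. *Cilp2* measured 1.06 ± 0.158 CPM per kb and *Cilp* had 4 counts over 3 libraries. The siCtrl and DMSO cultures belong to different tables, and treatment, time and sequencing set cannot be told apart between them. With coding length in place of exon length, the means of *Matn3*, *Matn2* and *Matn4* in DMSO were 19.4, 19.9 and 23.7 CPM per kb, so the order of these 3 genes changed with the length used.

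**Figure D1:**
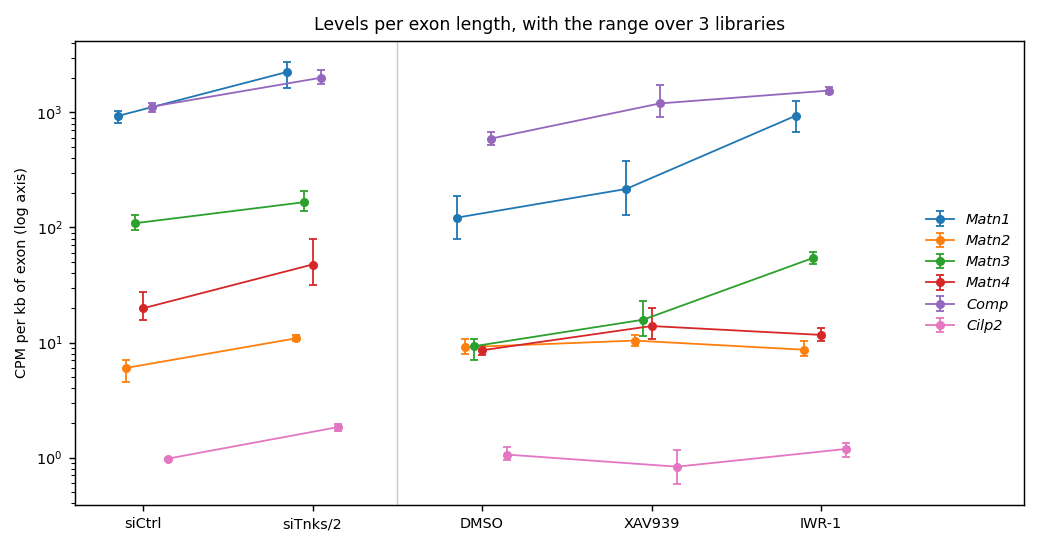
CPM per kb of exon (log axis) of 6 of the genes in the 5 groups; points are means of 3 libraries, bars run from the lowest to the highest library, and the vertical line separates the siRNA table from the drug table. *Matn3* rises from 9.28 CPM per kb with DMSO, level with *Matn2* and *Matn4*, to 54.1 CPM per kb with IWR-1, while *Matn2* stays between 8.66 and 10.4 CPM per kb in the drug table; *Cilp* is left out because it had at most 9 counts in a drug library.

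Knockdown of the tankyrases raised *Matn1*, *Matn2*, *Comp*, *Cilp* and *Cilp2*. *Matn1* rose 2.42-fold, and the rises of *Matn2*, *Comp* and *Cilp2* were 1.80-fold, 1.79-fold and 1.87-fold. *Matn3* and *Matn4* were higher in every knockdown library than in any control library, but did not pass the test without the replicate block. In all, 5 of 7 genes were called higher, against 10.4% of all 13672 genes tested. *Cilp* passed the filter on low counts only through its knockdown libraries, and without it 4 of 6 were called. The groups did not overlap for 7 of 7 genes, or 6 of 6 without *Cilp*, against 21.6% of all genes tested whose knockdown libraries were all higher. An exact permutation test of 3 libraries against 3 cannot give a p below 0.1. With the replicate number as a block, 7 of 7 were called, or 6 of 6 without *Cilp*, against 18.1% of all genes. Without siCtrl replicate 1 the count of called genes was 1, and without siCtrl replicate 3 it was 2, while 608 and 678 of all genes were called in those fits against 2459 with all libraries.

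IWR-1 raised *Matn1* 7.69-fold, *Matn3* 5.83-fold and *Comp* 2.62-fold. *Matn2* and *Cilp2* overlapped with DMSO, and *Matn4* was higher in each library without passing the test. Of the 6 genes tested, 3 were called higher, against 16.2% of all 13873 genes, and the block added *Matn4*, for 4 of 6 against 22.2% of all genes. Libraries with IWR-1 lay above all DMSO libraries for 4 of the 6 genes tested, against 24.7% of all genes tested. XAV939 at the same dose and time raised *Comp* 2.03-fold and *Matn4* 1.62-fold. These were 2 of the 6 genes tested, against 7.57% of all genes, and the block added *Matn1* and *Matn3*, for 4 of 6 against 16% of all genes. Libraries with XAV939 lay above all DMSO libraries for 3 of the 6, *Matn3*, *Matn4* and *Comp*, against 16.4% of all genes tested. The XAV939 call of *Comp* was lost without DMSO replicate 1, where it had a log2 fold change of 0.93 and an adjusted p of 0.0606, and that of *Matn4* was lost there too. *Comp* was the 1 gene called without DMSO replicate 2 or 3, without XAV939 replicate 2 or without any 1 of the IWR-1 libraries. *Cilp* was not tested in the drug table because its counts did not pass the filter. The XAV939 and IWR-1 comparisons share the same DMSO libraries.

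**Figure D2:**
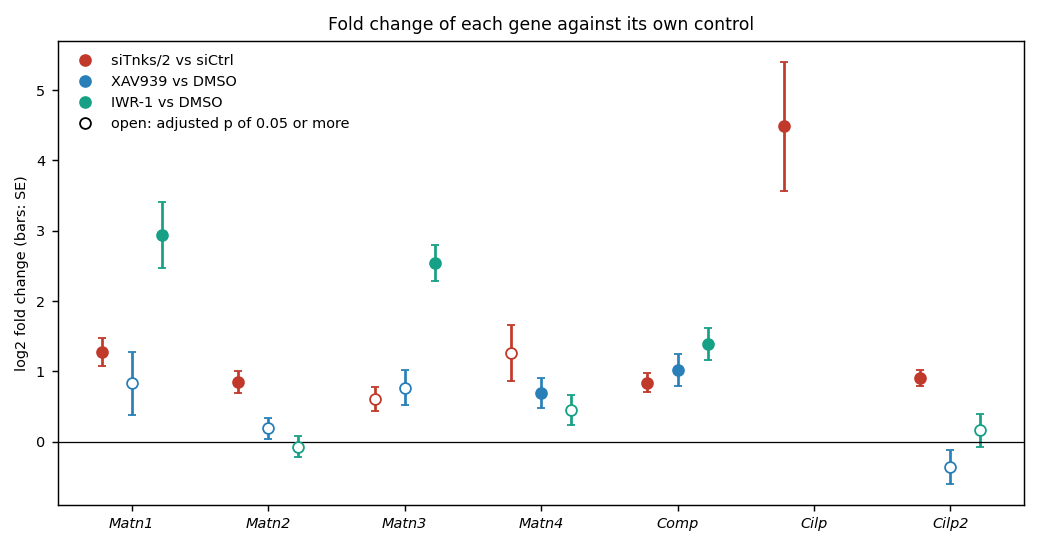
Log2 fold change (y axis) of each gene against siCtrl for the knockdown and against DMSO for the inhibitors; bars are the standard error, filled points have an adjusted p under 0.05 and open points do not. *Matn1* and *Matn3* stand highest under IWR-1, at 2.94 and 2.54, *Comp* lies between 0.84 and 1.39 in the 3 comparisons, and *Cilp* has a point for the knockdown only, which rests on 3 counts in the controls.

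*Matn1* (gene ID 17180, GRCm38 chr4:130944385-130955476, plus strand) encodes matrilin 1, the classical cartilage matrix protein. It measured 1880.2, 2069.9 and 1634 CPM in replicates 1, 2 and 3 with siCtrl and 4735, 5508 and 3250.1 CPM with siTnks/2. The groups were clearly apart, and the log2 fold change came to 1.27 ± 0.20 (SE), with an adjusted p of 0.0109. The call was lost without siCtrl replicate 1 or 3, with an adjusted p of at most 0.0532. Its drug table values were 159, 379 and 193 CPM in the DMSO libraries, 281, 761 and 255 CPM in the XAV939 libraries and 1741, 2526 and 1345 CPM in the IWR-1 libraries. IWR-1 libraries lay far above both other groups, whereas XAV939 and DMSO overlapped, with replicate 2 the highest in both. For IWR-1 the log2 fold change came to 2.94 ± 0.47 (SE), with an adjusted p of 0.000669. For XAV939 it was 0.83 (SE 0.44, adjusted p = 0.225), and 0.75 with the replicate block (adjusted p = 0.0047). Without XAV939 replicate 2 the unblocked value was 0.14 (adjusted p = 0.836), and over all fits that left out 1 library it ran from 0.14 to 1.30. Within same-numbered pairs, XAV939 libraries were 1.77-fold, 2.01-fold and 1.32-fold higher than DMSO.

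*Matn3* (gene ID 17182, GRCm38 chr12:8947929-8972028, plus strand) encodes matrilin 3, which can assemble with matrilin 1. It measured 308, 386 and 289 CPM with siCtrl and 453, 625 and 421 CPM with siTnks/2. The groups did not overlap, yet the log2 fold change of 0.61 (SE 0.17) had an adjusted p of 0.0537, which was 0.00266 with the replicate block and 0.0062 with DESeq2. The DMSO libraries held 21.2, 32.2 and 30.5 CPM, the XAV939 libraries 34.4, 69.4 and 38.9 CPM and the IWR-1 libraries 162, 183 and 145 CPM. The 3 groups did not overlap. IWR-1 stood far above the others, while the lowest XAV939 library, 34.4 CPM, was close to the highest DMSO library, 32.2 CPM. The log2 fold change came to 2.54 ± 0.26 (SE) under IWR-1, with an adjusted p of 3.41e-05. It was 0.76 under XAV939 (SE 0.25, adjusted p = 0.0573), with an adjusted p of 0.00463 with the block and 0.0176 with DESeq2. Leaving out any 1 library moved the IWR-1 value only between 2.38 and 2.66, and the adjusted p stayed at or below 0.000291. Over the same kind of fits the XAV939 value ran from 0.39 to 0.95, with an adjusted p of up to 0.19, and was called in 2 of 9.

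*Matn2* (gene ID 17181, GRCm38 chr15:34306681-34436242, plus strand) encodes the most widely expressed matrilin, found around many cell types. It measured 40.1, 28.6 and 44.3 CPM with siCtrl and 66.1, 64.6 and 73.4 CPM with siTnks/2. All 3 knockdown libraries were higher. The log2 fold change of 0.85 ± 0.15 (SE) had an adjusted p of 0.0151, and the call was lost without siCtrl replicate 1 or siTnks/2 replicate 1. Its drug table values were 50.1, 54.3 and 66.8 CPM in the DMSO libraries, 58.2, 63.8 and 73.4 CPM in the XAV939 libraries and 51.0, 47.5 and 64.2 CPM in the IWR-1 libraries. The drug groups overlapped throughout. The log2 fold change was 0.19 under XAV939 (95% interval −0.14 to 0.52, adjusted p = 0.406). Under IWR-1 it was −0.07 (95% interval −0.40 to 0.26, adjusted p = 0.74). The knockdown estimate lay above both intervals, but its own 95% interval, 0.49 to 1.22, overlapped that of XAV939. Tested directly, the XAV939 effect minus the knockdown effect was −0.68 and was not called (adjusted p = 0.0639). The IWR-1 effect minus the knockdown effect was −0.94 (adjusted p = 0.00819).

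*Matn4* (gene ID 17183, GRCm38 chr2:164389393-164405160, minus strand) encodes matrilin 4, which is found in cartilage and in other tissues. It measured 81.6, 141 and 85.2 CPM with siCtrl and 168, 407 and 165 CPM with siTnks/2. Replicate 2 stood above the others in both groups, the groups did not overlap, and the log2 fold change came to 1.26 ± 0.40 (SE), with an adjusted p of 0.0688 that was 0.00321 with the replicate block. The DMSO libraries held 40.6, 48.3 and 44.1 CPM, the XAV939 libraries 55.4, 103 and 57.9 CPM and the IWR-1 libraries 57.6, 69.5 and 53.8 CPM. Both drug groups lay above DMSO. Under XAV939 the log2 fold change came to 0.70 ± 0.21 (SE), with an adjusted p of 0.0465. Without XAV939 replicate 2 the value fell to 0.36 (adjusted p = 0.0973). The call was kept in 2 of 9 fits that left out 1 library, those without XAV939 replicate 1 or 3. Under IWR-1 it was 0.44 (SE 0.21, adjusted p = 0.131), with an adjusted p of 0.0153 with the block.

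The annotated exons of *Matn2* share 70 bases with *9430069I07Rik* and those of *Matn4* share 149 bases with *Rbpjl*, both on the opposite strand. The library kit keeps the strand, but the strand setting of the counting is not given, so reads from these bases may be shared or dropped.

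*Comp* (gene ID 12845, GRCm38 chr8:70373548-70382066, plus strand) had the most reads of the 7 genes in every library. It measured 3369, 3601 and 2999.6 CPM with siCtrl and 5610.4, 6948 and 5269.6 CPM with siTnks/2. The groups were apart, and the log2 fold change came to 0.84 ± 0.14 (SE), with an adjusted p of 0.0118. The call was lost without siCtrl replicate 1 or 3. Its drug table values were 1533, 2022 and 1708 CPM in the DMSO libraries, 2708, 5099 and 2854 CPM in the XAV939 libraries and 4555, 4942 and 4294 CPM in the IWR-1 libraries. Each drug group lay above DMSO, and the highest XAV939 library, replicate 2, exceeded all IWR-1 libraries. The log2 fold change came to 1.02 ± 0.23 (SE) under XAV939, with an adjusted p of 0.0124. Without XAV939 replicate 2 it was 0.67 and was still called. Under IWR-1 it was 1.39 (SE 0.23, adjusted p = 0.000827). 

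The other thrombospondins measured were *Thbs1*, *Thbs2*, *Thbs3* and *Thbs4*. *Thbs3*, which like *Comp* encodes a pentameric thrombospondin, rose in all 3 comparisons, with log2 fold changes of 0.49 under knockdown (adjusted p = 0.0192), 1.24 under XAV939 (0.00225) and 1.43 under IWR-1 (0.000278). *Thbs1*, a trimeric thrombospondin of wounded and cultured cells, fell by 0.96 on the log2 scale under knockdown (adjusted p = 0.0284) and by 0.60 under XAV939 (0.0458). Its value under IWR-1 was 0.08 (adjusted p = 0.76). *Thbs2* fell by 0.58 under IWR-1 (adjusted p = 0.0113), and *Thbs4* had values of 0.80, 1.35 and 1.38 with adjusted p of 0.171, 0.101 and 0.0601.

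*Cilp* (gene ID 214425, GRCm38 chr9:65265180-65280614, plus strand) was barely detected. It had 2, 0 and 1 counts in the siCtrl libraries and 13, 44 and 14 counts in the siTnks/2 libraries. The groups did not overlap, and the ratio of the pooled counts, scaled to library size, was 24.8 with a 95% counting interval of 8.16 to 123. The fitted log2 fold change came to 4.49 ± 0.92 (SE), with an adjusted p of 0.0208. *Cilp* entered this fit only through its high knockdown libraries, so that p depends on the outcome and is given as a description. The fitted value ran from 3.64 without siTnks/2 replicate 2 to 5.31 without siCtrl replicate 1, and the call was lost when any 1 of the siCtrl libraries was left out. In the drug table it had 1, 3 and 0 counts with DMSO, 2, 4 and 9 with XAV939 and 4, 7 and 8 with IWR-1. Ratios against DMSO were 3.86 (1.23 to 16) for XAV939 and 4.70 (1.56 to 19.0) for IWR-1. These intervals come from counts pooled over the libraries of a group, so they cover counting error only and leave out the spread between cultures. The XAV939 and DMSO libraries overlapped, and 9 of the 15 XAV939 counts came from replicate 3. The reads carry no molecular identifiers, and even after knockdown the mean was 0.826 CPM.

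*Cilp2* (gene ID 68709, GRCm38 chr8:69880366-69887392, minus strand) was also low, at 115 to 239 counts per library in the siRNA table and 95 to 200 in the drug table. It measured 4.26, 4.25 and 4.19 CPM with siCtrl and 7.98, 8.52 and 7.31 CPM with siTnks/2. The log2 fold change of 0.91 ± 0.11 (SE) had the smallest standard error among the 7 genes and an adjusted p of 0.00608, and it was called in all 6 fits that left out 1 library. Its drug table values were 5.37, 4.22 and 4.15 CPM in the DMSO libraries, 2.56, 4.99 and 3.24 CPM in the XAV939 libraries and 4.36, 5.23 and 5.80 CPM in the IWR-1 libraries. All 3 drug groups overlapped. The log2 fold change was −0.36 under XAV939 (95% interval −0.89 to 0.17, adjusted p = 0.327) and 0.16 under IWR-1 (95% interval −0.35 to 0.68, adjusted p = 0.626).

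**Figure D3:**
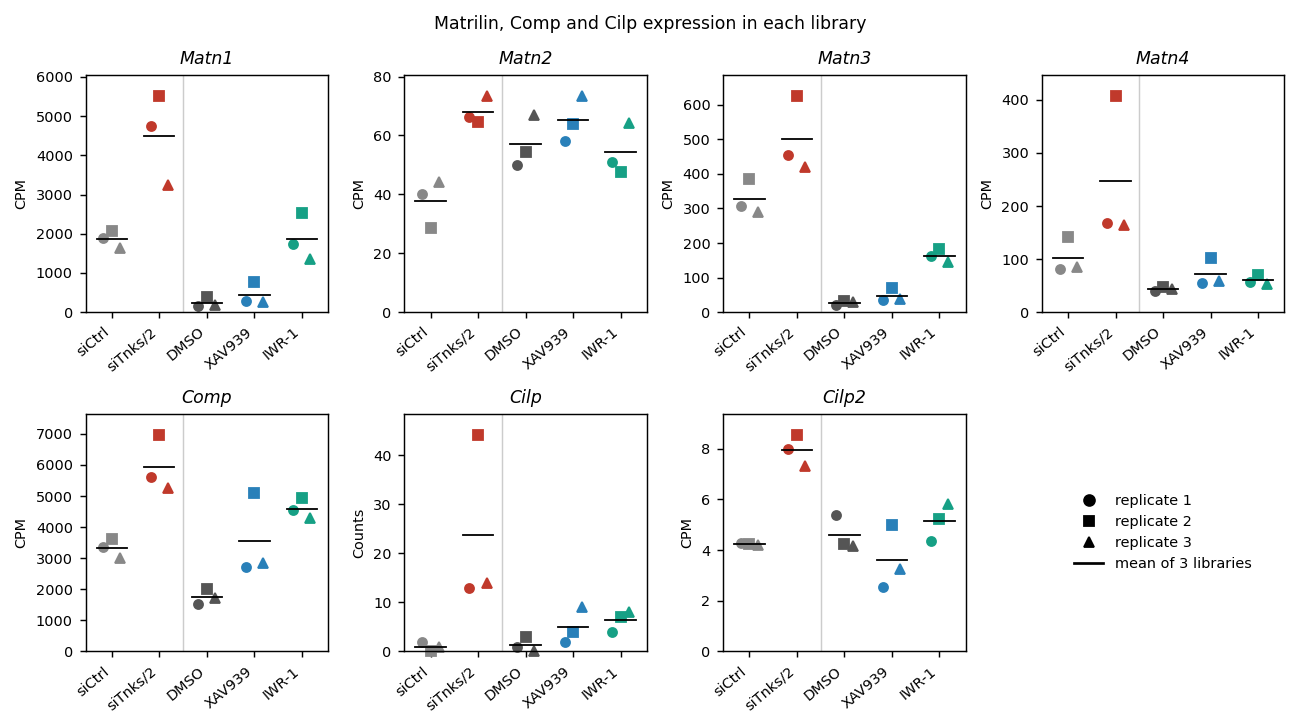
Expression of each gene in every library, in CPM or, for *Cilp*, in counts (y axes start at 0); marker shapes give the replicate number, horizontal lines the mean of 3 libraries, and the vertical line separates the siRNA table from the drug table. Knockdown libraries lie above all control libraries in each panel, IWR-1 lifts *Matn1*, *Matn3* and *Comp*, and replicate 2 is the highest of its group for *Matn1*, *Matn3*, *Matn4* and *Comp* in all 5 groups.

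The inhibitors were compared directly as 1 pair of compounds, since dose and time were the same. *Matn1* was 4.33-fold higher with IWR-1 than with XAV939 (log2 difference 2.11, SE 0.46, adjusted p = 0.00977). Without XAV939 replicate 2 that difference was 2.80 (adjusted p = 0.0031), and over the 9 fits that left out 1 library it ran from 1.84 to 2.80. *Matn3* was 3.44-fold higher (log2 difference 1.78, SE 0.25, adjusted p = 0.00101). These were 2 of the 6 genes tested, against 7.37% of all genes higher. *Comp* differed by 0.37 (95% interval −0.13 to 0.87, adjusted p = 0.301; 0.0437 with the block). *Matn4* differed by −0.26 (95% interval −0.72 to 0.21), *Matn2* by −0.26 (−0.59 to 0.06; adjusted p = 0.033 with the block) and *Cilp2* by 0.52 (−0.0018 to 1.05). With the block 4 of 6 differed, 3 higher against 14.1% of all genes and 1 lower against 16.6%. Without XAV939 replicate 2, 4 of 6 were higher with IWR-1, with *Comp* and *Cilp2* added. Over the 9 fits that left out 1 library, calls in either direction over all genes ran from 1343 to 3044, against 2442 with all libraries.

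Whether the drug effects differed from the knockdown effect was tested as a difference of effects over all 15 libraries. The IWR-1 effect exceeded the knockdown effect for *Matn3* by 1.92 on the log2 scale (SE 0.34, adjusted p = 0.000969) and for *Matn1* by 1.66 (SE 0.57, adjusted p = 0.0451). For *Matn2* it was smaller, with a difference of −0.94 (SE 0.23, adjusted p = 0.00819). Over all 14271 genes, 10.5% were called higher and 13.9% lower in this test. The *Matn1* difference was not called in 9 of 15 fits that left out 1 library, those without any 1 of siCtrl replicates 1 to 3, siTnks/2 replicates 1 and 3, DMSO replicates 1 and 3, and IWR-1 replicates 1 and 2. The XAV939 effect on *Cilp2* lay below that of knockdown, with a difference of −1.28 (SE 0.29, adjusted p = 0.0111), and the other 6 genes were not called, against 8.07% of all genes called lower. With the block, *Matn2* joined *Cilp2* in the XAV939 test, a difference of −0.69 (adjusted p = 0.00263), for 2 of 7 against 15.4% of all genes. In the IWR-1 test with the block 6 of 7 were called, 3 higher against 17% of all genes and 3 lower against 19.3%, which added *Comp* (0.56, adjusted p = 0.0382), *Matn4* (−0.75, 0.0097) and *Cilp2* (−0.76, 0.0479). *Cilp* entered these difference tests only through its knockdown libraries. It is counted among the 7 genes here and was not called. The time of knockdown is not given, so doses and durations could not be matched between the tables. The controls also differed in level, with *Matn1* means of 243 CPM with DMSO and 1861 CPM with siCtrl. For *Matn3* these means were 28.0 and 328 CPM. *Matn1* averaged 1871 CPM with IWR-1 and 4498 CPM with siTnks/2, and *Matn3* 163 and 500 CPM. A larger effect of IWR-1 is therefore not a higher level than after knockdown.

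Among themselves the genes were not in fixed proportion. Reads on *Comp* outnumbered those on *Matn1* by 5.33 to 9.67 times with DMSO and 6.70 to 11.2 times with XAV939, but by only 1.96 to 3.19 times with IWR-1. With siCtrl the ratio was 1.74 to 1.84 and with siTnks/2 1.18 to 1.62. These are ratios of reads, without correction for length. The ratio of *Matn1* to *Matn3* reads ranged from 6.32 to 11.8 with DMSO, 6.55 to 11 with XAV939 and 9.28 to 13.8 with IWR-1. These ranges overlapped, but within each of the 3 same-numbered sets IWR-1 had the highest ratio. In replicate 1 it was 7.48 with DMSO, 8.16 with XAV939 and 10.8 with IWR-1. The ratio ran from 5.36 to 6.11 with siCtrl and from 7.71 to 10.4 with siTnks/2. Together the 7 genes took 0.175% to 0.240% of all counts with DMSO, 0.318% to 0.592% with XAV939, 0.60% to 0.769% with IWR-1, 0.528% to 0.628% with siCtrl and 0.925% to 1.25% with siTnks/2.

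Log2 CPM was followed across the 15 libraries after the mean of each table's own control was subtracted. *Matn1* and *Matn3* had a Pearson r of 0.96, *Matn1* and *Comp* 0.90, and *Matn3* and *Comp* 0.88. *Matn2* had r of −0.05 with *Matn1*, −0.18 with *Matn3* and 0.61 with *Cilp2*. Of 10463 genes searched, those most like *Matn3* were *Surf6* (r = 0.987), *Acan* (0.987) and *Col11a2* (0.986). Those most like *Matn1* were *Gpt2* (0.985), *Asrgl1* (0.982) and *Col2a1* (0.972), and those most like *Comp* were *Meltf* (0.984), *Dusp15* (0.977) and *Zfp783* (0.974). For *Matn2* they were *Arnt2* (0.936), *Ppm1h* (0.930) and *Rybp* (0.924), for *Matn4* *Fbxo31* (0.936), *Tgm2* (0.931) and *Dlk1* (0.919), and for *Cilp2* *Fbxo42* (0.927), *Sqstm1* (0.915) and *Colgalt2* (0.904). The points share their controls, replicate numbers and groups, so these values describe the 15 libraries and carry no test.

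The collagens and proteoglycans that these proteins join were counted in the same tests. Over all genes tested, 10.4% were called higher and 7.61% lower under knockdown, 7.57% higher and 9.85% lower under XAV939, and 16.2% higher and 20.2% lower under IWR-1, and the counts of this and the following lists stand beside these shares. Of 13 collagen partners, 4 rose under knockdown, 3 rose and 2 fell under XAV939, and 6 rose and 2 fell under IWR-1. *Col11a2*, a chain of the cartilage collagen XI, had the largest rise under IWR-1, 2.28 (adjusted p = 1.01e-05), and *Col1a1*, of fibrous tissue and bone, the largest fall, −1.39 (adjusted p = 0.000362). *Col2a1*, the main fibril collagen of cartilage, rose by 1.66 under IWR-1 (adjusted p = 0.000194). Its values were 0.64 (adjusted p = 0.14) under knockdown and 0.52 (adjusted p = 0.118) under XAV939. *Col9a3*, a collagen IX chain, had the largest rise under XAV939, 1.16, and *Col12a1* the largest fall, −1.41, while under knockdown the range of those called ran from *Col11a2* at 0.68 to *Col14a1* at 1.43.

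Of 11 proteoglycan and adaptor partners, 3 rose under knockdown, 4 rose and 1 fell under XAV939, and 4 rose and 3 fell under IWR-1. *Acan*, the core protein of aggrecan, to which matrilins attach, rose by 0.96 under knockdown (adjusted p = 0.0155), 1.21 under XAV939 (0.00516) and 2.95 under IWR-1 (1.12e-05). *Chad*, which encodes the collagen-binding chondroadherin, had the largest rise under knockdown, 2.39 (adjusted p = 0.00864), and under XAV939, 1.22. *Dcn*, for decorin, had the largest fall under IWR-1, −1.29, and *Nid1*, for the basement membrane protein nidogen 1, was the one that fell under XAV939, −0.50.

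Of 12 proteases known to cut COMP, matrilins or aggrecan, 10 were tested. Under IWR-1, 9 of them fell, from *Mmp19* at −0.68 to *Mmp3*, for stromelysin, at −3.13 (adjusted p = 3.11e-06). Under XAV939, 3 fell and 1 rose, between *Adamts5*, an aggrecanase, at −1.22 and *Mmp9*, a gelatinase, at 0.86. Under knockdown 3 rose, *Mmp9* at 2.90, *Mmp13* at 0.98 and *Htra1* at 0.36. In the knockdown *Mmp9* stayed at 5.10 CPM or less. The controls differed widely in level. *Mmp3* averaged 9843 CPM with DMSO and 1124 CPM with IWR-1, against 22.1 CPM with siCtrl and 71.3 CPM with siTnks/2. For *Mmp13* the means were 13066 and 3363 CPM, against 464 and 919 CPM. Both genes therefore stayed higher after IWR-1 than after knockdown.

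Of 7 genes for the growth factors and receptors that CILP or COMP can bind, *Tgfb1* rose under knockdown, by 0.73 (adjusted p = 0.0118), and fell under IWR-1, with a value of −0.64 (adjusted p = 0.000189). *Igf1*, the ligand that CILP antagonizes, had log2 fold changes of −1.43 under XAV939 (adjusted p = 0.00254) and −1.56 under IWR-1 (0.000475), the largest fall of the list in each. In all, 1 rose and 1 fell under knockdown (*Grn*, −0.43), 3 fell under XAV939 and 4 fell under IWR-1. Of 10 regulators of cartilage matrix genes, all 10 had an adjusted p of 0.0552 (*Nkx3-2*) or more under knockdown. *Sox9*, for the main chondrocyte transcription factor, had values of 0.07 (adjusted p = 0.68) under knockdown and 0.34 (0.0677) under XAV939, and rose by 1.01 under IWR-1 (8.17e-05). *Nkx3-2*, for a repressor of chondrocyte hypertrophy, rose by 0.84 under XAV939 and by 1.07 under IWR-1, where it was the largest rise of the 3 called, and *Runx3* and *Nfib* were the ones that fell, by 0.68 under XAV939 and by 0.52 under IWR-1.

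**Figure D4:**
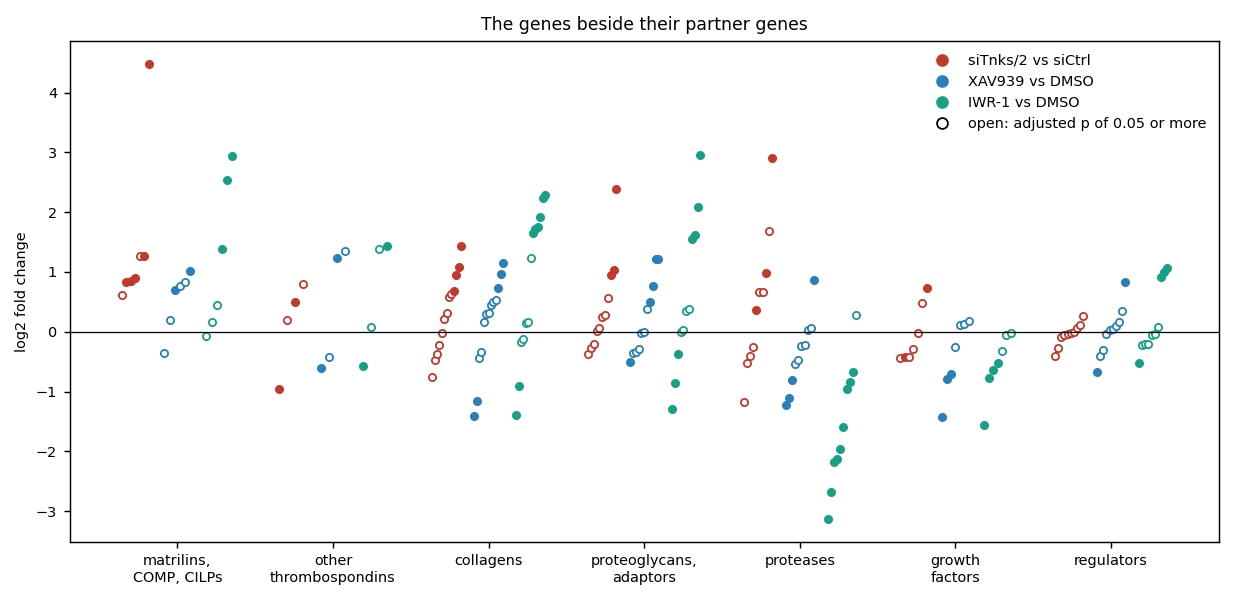
Log2 fold changes (y axis) of the genes tested among the 7 beside those of 6 lists of related genes in the 3 comparisons; each point is 1 gene, sorted within its column, filled where the adjusted p is under 0.05. Under IWR-1, 9 of 10 tested proteases are below 0 and filled while 6 of 13 collagens are filled above 0; under knockdown 3 proteases are filled, each above 0.

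Among cell type markers, 10 of 10 chondrocyte markers rose under IWR-1, 4 under XAV939 and 4 under knockdown. Of 10 fibroblast and tendon markers, 5 fell and 1 rose under IWR-1, 4 fell and 2 rose under XAV939, and 2 rose under knockdown. Hypertrophy and bone markers included *Col10a1*, which rose by 1.44, 1.38 and 3.07 in knockdown, XAV939 and IWR-1. The list as a whole showed 1 rise of 8, 3 of 7 and 5 of 7, with 1 fall under IWR-1, *Spp1* at −1.43. Of leukocyte markers 2 of 4 tested fell under IWR-1, as did 2 of 2 endothelial markers, and of muscle markers 2 were tested and were not called. The part of these shifts in the values of the 7 genes was not tested.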

How the data were processed

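The deposited files are 2 tables of raw read counts with 24134 Entrez IDs each. RefSeq gave a symbol for 24051 of them. To make these counts, the authors used Trimmomatic 0.32, TopHat2 2.0.13 with mm10 and HTSeq 0.6.1p1, as named in the submitters' processing notes. The annotation and the strand setting are not given in the sources used here.

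Each table was fitted as a whole in edgeR 4.0.16 (R 4.3.3) with filterByExpr, TMM scaling and the quasi-likelihood F test, which left 13672 genes with siRNAs and 13873 with drugs. Differences of effects came from a joint model of 15 libraries and 14271 genes. P-values were adjusted by the Benjamini-Hochberg method over every gene of a fit, and a call needed an adjusted p under 0.05. SE and 95% intervals come from the same fits, CPM from each table's own scaled library sizes, and gene lengths from GENCODE vM21. The scripts were first tested on simulated data. With 3 libraries per group, the p-values set each effect against the spread between these cultures, which is estimated partly from all genes. The main fit did not use the replicate numbers.

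To check pairing, deviations from the group means were correlated between libraries. Same-numbered libraries gave r of 0.143 to 0.553 in 9 drug pairs and 0.424 to 0.519 in 3 siRNA pairs, all above 0.1, and different numbers reached 0.318 and 0.0972. In the drug table DMSO replicate 2 was closer to XAV939 replicate 1 (0.318) than to XAV939 replicate 2 (0.143), so pairing was less clear there. The labels' replicate number served as a block in an alternative fit for both tables. The other alternatives were RLE or upper-quartile scaling, no filter, at least 10 counts in every library, DESeq2 1.42.0, models restricted to 2 groups, omission of each library, and coding length.

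The 7 genes, the partner and marker lists and the tests were chosen with earlier results of these data known. From each list the text may name the genes with the largest and smallest log2 fold change among those called, plus the thrombospondins, *Sox9*, *Col2a1* and *Acan*, and for each of the 7 genes the 3 with the highest Pearson r among genes with a mean of at least 5 CPM. *Mmp13* was named after its value was seen. The siRNA sequences come from the supplement and were matched to GENCODE vM21 transcripts.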

Additional observations from a re-analysis of the deposited data

Results flagged for a closer look

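Values below are differences between effects that passed the test of the difference itself. *Matn1* and *Matn3* were higher with IWR-1 than with XAV939, by 2.11 and 1.78 on the log2 scale. The IWR-1 effect also exceeded the knockdown effect for both genes, by 1.66 for *Matn1* and 1.92 for *Matn3*. Both genes had lower levels with DMSO than with siCtrl. The *Matn1* call in that test was lost in 9 of 15 fits that left out 1 library. Of all genes, 10.5% were called higher and 13.9% lower in it. For *Matn2* the IWR-1 effect was below the knockdown effect, with a difference of −0.94. The XAV939 effect on *Cilp2* was below the knockdown effect, with a difference of −1.28. Groups of 3 libraries were not tested for a library that stands apart.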

How the results depend on the processing

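With the replicate block, which changed no call beyond those given beside the results, the count of the 7 genes called was 4 for XAV939, 4 for IWR-1 against XAV939, 2 for the XAV939 effect minus the knockdown effect and 6 for the IWR-1 effect minus it, and calls over all genes rose from 2459 to 4727 for knockdown, from 2416 to 4630 for XAV939 and from 2442 to 4258 for IWR-1 against XAV939. RLE scaling and a model of only DMSO and XAV939 each left 1 gene called for XAV939, as *Matn4* had an adjusted p of 0.0505 and 0.0887, and the latter called 1569 of all genes. Leaving out 1 library at a time, the genes called ranged from 1 to 6 for knockdown, 0 to 3 for XAV939, 3 to 4 for IWR-1, 2 to 4 for IWR-1 against XAV939, and 1 to 2 and 2 to 4 for the XAV939 and IWR-1 effects minus the knockdown effect. *Cilp* was among the genes counted for knockdown and for the differences of effects. All-gene calls ranged from 608 to 2868 for knockdown, 1322 to 2484 for XAV939, 3771 to 5669 for IWR-1 and 1343 to 3044 for IWR-1 against XAV939. For the differences of effects they were not counted in these fits. Over those fits the sign turned only for values that were not called: *Matn2* under IWR-1 (−0.23 to 0.050, positive without IWR-1 replicate 2 and without DMSO replicate 3), *Matn4* for IWR-1 against XAV939 (−0.41 to 0.089, positive without XAV939 replicate 2), and 4 values of the XAV939 effect minus the knockdown effect. These were *Matn1* (−1.16 to 0.020, positive without DMSO replicate 2), *Matn3* (−0.24 to 0.35, negative without XAV939 replicate 2 and at −0.01 without DMSO replicate 1), *Matn4* (−0.93 to 0.0017, positive without siTnks/2 replicate 2) and *Comp* (−0.20 to 0.35, negative without XAV939 replicate 2). The cause was not tested. Under the alternatives that kept all libraries, 217 log2 fold changes kept their direction and call, 16 gained a call and 2 lost it. DESeq2 was not run for differences of effects. Depth limits *Cilp*, and *Cilp2* less so.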
